A study of Mus musculus with 7 samples.

Results

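Interferon-stimulated genes are the genes that cells transcribe after an interferon has bound its receptor. Here 44 such genes were followed in the livers of 3 wild-type (WT) and 4 whole-body Tet1 knockout (TET1 KO) male mice. The genes were chosen by name, with earlier results of these data known. All mice were put on a high-fat diet (HFD) when 8 weeks old and stayed on it for 16 weeks, and the labels give the strain of both genotypes as C57BL/6J. Tet1 encodes a dioxygenase that oxidizes 5-methylcytosine in DNA, and the knockout removes it from immune and stromal cells as well as from hepatocytes. The labels write the knockout genotype as TET-1-TKO. The study's description of its liver RNA-seq gives the mice as TET1-/-, a germline knockout that it keeps apart from its floxed mice with a β-actin Cre. Its methods give the knockout line as B6;129S4-Tet1tm1.1Jae/J, and name backcrossing to C57BL/6J for the floxed and Cre lines but not for this one. Livers of mice on another diet were not analysed here. The 44 genes were found by symbol among the 51426 genes of the count tables, and all 44 passed the filter on low counts that left 14754 genes for testing.

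Library sizes ran from 15005277 to 22746138 counts, the ranges of the genotypes overlapped, and no pair of libraries of a genotype looked like 1 library deposited again (chi-square per degree of freedom of 27.4 for the closest pair). The count of Tet1 itself was 1, 4 and 1 in the WT livers and 2, 1, 4 and 1 in the TET1 KO livers. Its mRNA was thus at the floor in both genotypes, so the counts do not check the knockout. Levels are given as CPM, counts scaled to the TMM-normalized size of each library, with the mean ± SD over mice. CPM is not divided by gene length, so a CPM compares mice for 1 gene and does not rank genes. Differences are log2 fold changes of TET1 KO over WT, with the 95% confidence interval (CI) of edgeR's quasi-likelihood fit. A gene was called at an adjusted p under 0.05 in that test, where adjustment by Benjamini-Hochberg ran over all 14754 genes. In whole liver, fewer cells of a type and less RNA per cell cannot be told apart.

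Type I interferons bind a receptor of Ifnar1 and Ifnar2, whose kinases Tyk2 and Jak1 phosphorylate STAT2 and related factors. STAT2 and IRF9 are part of a complex that binds the interferon-stimulated response element, a pair of GAAA half-sites, in the promoters of its targets. Interferon gamma acts through Ifngr1 and Ifngr2, and its targets carry the gamma-activated site. The products sense foreign nucleic acid, degrade or sequester viral RNA, attack pathogen vacuoles and feed back on the pathway. Hepatocytes, Kupffer cells and endothelial cells of the liver all carry these receptors, and a low tonic expression of the targets is usual in tissue without infection.

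Promoters of 7 of the genes described below are shown because they hold the letters of the response element. RefSeq promoters on GRCm38.p6, from 250 bases before to 50 bases after each annotated start, were at hand for 33 of the 44 genes. The core of the response element, GAAANNGAAA on either strand, occurred in 19 of these 33 genes (57.6%), beside 3.99% of all 27025 genes with a promoter in the table. The core of the gamma-activated site, TTCNNNGAA, which reads the same on both strands, occurred in 8 of the 33 genes (24.2%), beside 9.55% of all genes. A match to one core overlapped a match to the other in 1 window. Of the 19 genes with the first core, 7 had a log2 fold change above 0 and 12 had one below 0. A match of these letters describes the sequence and is not a measured binding site. Each stretch below is 130 bases long and reads 5′ to 3′ on the strand of its gene, with the response element core in capitals. The stretches end at the base before the start for Calhm6 (chr10:34127973-34128102, minus strand), Rsad2 (chr12:26456453-26456582, minus strand), Isg15 (chr4:156200819-156200948, minus strand) and Ifit1 (chr19:34640759-34640888, plus strand). The same holds for the neighbouring GTPase genes Igtp (chr11:58199426-58199555, plus strand) and Irgm2 (chr11:58214847-58214976, plus strand), which share a run of 38 identical bases there. That of Stat2 (chr10:128270248-128270377, plus strand) runs from base -250 to base -121, since its only match lies there.
Calhm6: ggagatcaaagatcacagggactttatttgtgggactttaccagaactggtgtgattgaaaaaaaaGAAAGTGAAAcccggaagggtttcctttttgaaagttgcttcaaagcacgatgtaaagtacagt
Rsad2: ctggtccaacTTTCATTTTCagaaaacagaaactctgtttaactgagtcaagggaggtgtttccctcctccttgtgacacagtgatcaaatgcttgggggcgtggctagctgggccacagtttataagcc
Isg15: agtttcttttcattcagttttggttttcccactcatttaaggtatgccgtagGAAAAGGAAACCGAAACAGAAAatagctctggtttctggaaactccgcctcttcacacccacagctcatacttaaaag
Ifit1: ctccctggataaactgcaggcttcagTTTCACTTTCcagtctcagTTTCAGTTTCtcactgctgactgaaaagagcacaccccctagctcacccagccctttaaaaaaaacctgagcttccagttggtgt
Igtp: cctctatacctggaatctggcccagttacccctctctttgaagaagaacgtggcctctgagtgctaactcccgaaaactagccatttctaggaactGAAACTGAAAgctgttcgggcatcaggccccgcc
Irgm2: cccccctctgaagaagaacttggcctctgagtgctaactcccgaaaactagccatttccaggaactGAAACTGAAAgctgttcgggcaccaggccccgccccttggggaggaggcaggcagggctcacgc
Stat2: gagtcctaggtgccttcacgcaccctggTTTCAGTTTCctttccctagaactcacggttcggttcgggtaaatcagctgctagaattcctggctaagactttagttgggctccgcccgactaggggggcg
Isg15 held 3 overlapping matches in 1 run, and Ifit1 held 2 separate ones, whereas Calhm6, Rsad2, Igtp, Irgm2 and Stat2 held 1 match each. No match to the core lay in the windows of Cmpk2, Ifi35, Xaf1, Irf7 and Irf9, and promoters of Oas2 and Mx2 were not used here.

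Across the 44 genes, TET1 KO and WT livers differed little. Calhm6 alone was called, and it was higher in TET1 KO livers, so that 1 of 44 genes passed the test beside 2.02% of all genes tested. Among all genes 0.874% were called higher and 1.15% lower, and no interferon-stimulated gene was called lower in this edgeR fit or by DESeq2. With the replicate number as a block in edgeR, 1 was called lower (Rsad2, adjusted p = 0.0475), beside 8.99% of all genes called in either direction. The replicate numbers do not pair the mice. The log2 fold change was above 0 in 20 genes and below 0 in 24, with a median of -0.04 and a range from -0.65 to 1.05. Over all genes tested the median was 0.01. Without any adjustment, 7 genes were higher and 4 were lower at a p under 0.05, beside 26.3% of all genes in either direction. The 3 WT and 4 TET1 KO values did not overlap for 7 genes, beside 22.5% of all genes. Of these, 5 were higher in TET1 KO livers, beside 11.7% of all genes, and 2 were lower, beside 10.8%. In both directions, the genes without overlap made up no larger a share of the 44 genes than of all genes. DESeq2, run as another test, called 2 of the 44 genes, Calhm6 and Oas2, beside 9.02% of all genes. For 34 of the 44 genes the CI lay within 2-fold in both directions, and for 9 it lay within 1.5-fold. The CI reached a 2-fold rise for 6 genes and a 2-fold fall for 4, so changes of that size are not excluded for these.

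**Figure D1:**
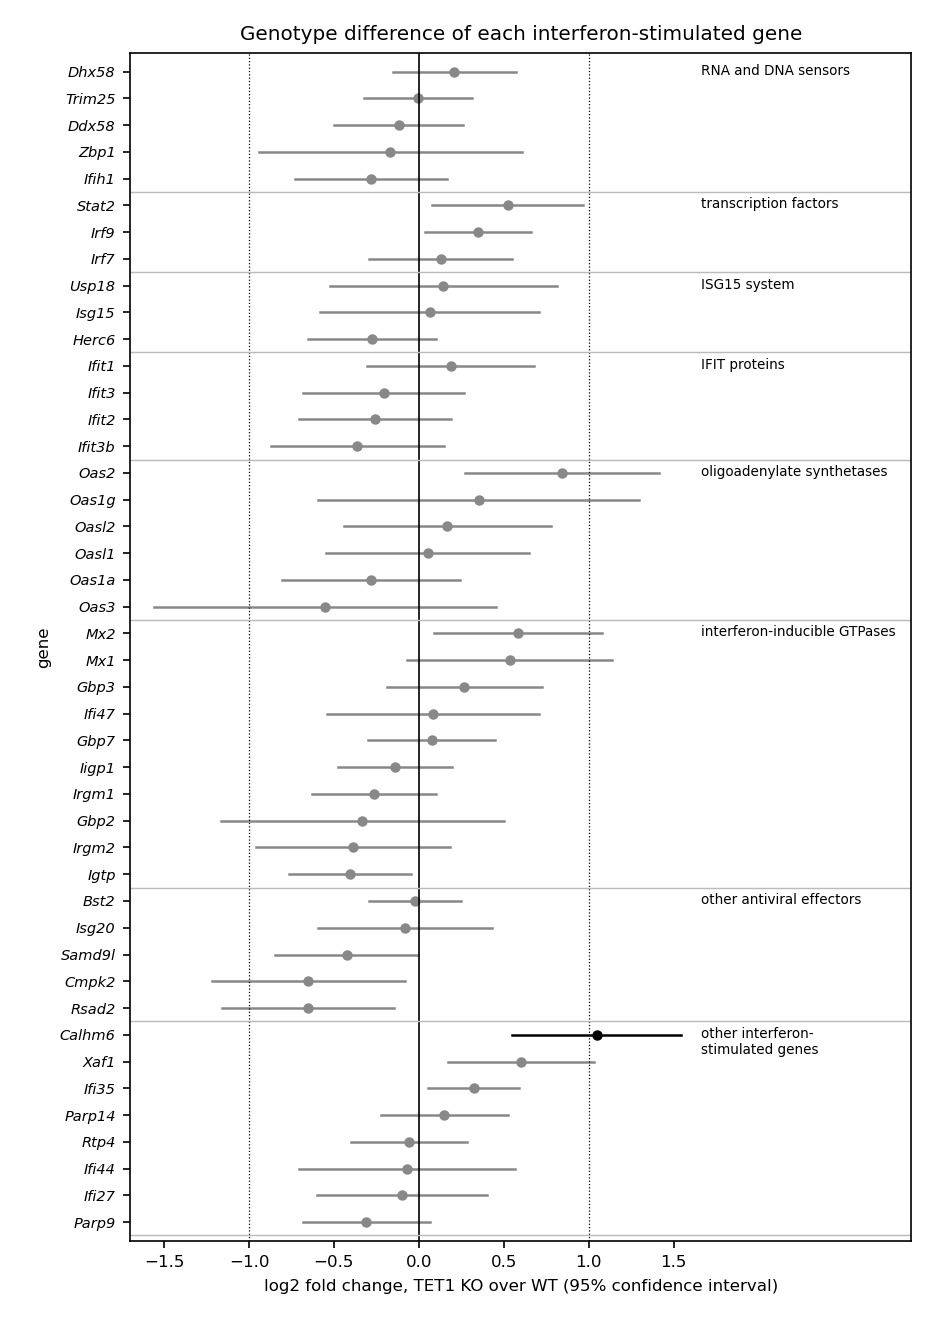
Log2 fold change of each interferon-stimulated gene, TET1 KO (n = 4) over WT (n = 3), with its 95% confidence interval, grouped by role. The black point is Calhm6 at 1.05, the called gene, and dotted lines mark 2-fold differences. The other points are scattered on both sides of 0, from -0.65 to 0.84.

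Calhm6 (ENSMUSG00000046031), which encodes a pore-forming protein of the calcium homeostasis modulator family, had 1.53, 1.20 and 1.43 CPM in the WT livers. In the TET1 KO livers it had 2.69, 2.96, 2.97 and 2.83 CPM. The lowest TET1 KO liver was thus well above the highest WT liver, and the spread within each genotype was small (1.39 ± 0.17 against 2.86 ± 0.13 CPM). Its log2 fold change was 1.05 (95% CI 0.55 to 1.55, edgeR adjusted p = 0.0440, n = 3 and 4). The adjusted p was 0.0450 without TET1 KO replicate 4 and was above 0.05 without any other single mouse, at 0.0551 to 0.209, while the log2 fold change stayed between 0.94 and 1.11. With all mice kept, the adjusted p was 0.0507 with library size only and 0.0553 with the replicate block, and the call was lost in both. Calhm6 lies on chromosome 10, as Tet1 does, 28.7 Mb away. Of the 706 tested genes placed on that chromosome 1.56% were called, beside 2.08% of the 13248 on the others. A share over the whole chromosome does not single out genes near Tet1, and linkage to Tet1 was not tested.

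In single mice, many of the 44 genes were low or high together. TET1 KO replicate 1 had the lowest level of all 7 livers in 25 of the 44 genes, and its median log2 CPM relative to the WT mean was -0.48. TET1 KO replicate 2 had the highest level in 13 genes, with a median of 0.19. Among the WT livers, replicate 2 had the highest level of all 7 in 11 genes and the lowest in 9, with a median of 0.00. The other TET1 KO livers were close to WT, with medians of -0.02 and 0.10 in replicates 3 and 4. The WT livers had medians of -0.11, 0.00 and 0.09, and over all genes tested the median was between -0.01 and 0.02 in each of the 7 livers. TMM scaling holds these all-gene medians near 0 by construction. The share of all genes that were lowest or highest in each liver was not counted, so these counts do not show a pattern particular to the 44 genes. The level of replicate 1 was lowest in the ISG15 system, with a median of -0.96 over 3 genes, in the other antiviral effectors, with -0.85 over 5 genes, and in the oligoadenylate synthetases, with -0.68 over 6 genes. Of the 3 transcription factors, Stat2 and Irf9 were above the WT mean in the same liver and Irf7 was below it, with a median of 0.22. Replicate 1 exceeded the WT mean in 11 of the 44 genes. Within the TET1 KO group the highest liver exceeded the lowest by a median of 1.64-fold, from 1.05-fold for Ifi35 to 3.85-fold for Oas3, and by more than 2-fold in 11 genes. Without TET1 KO replicate 1 the median log2 fold change of the 44 genes was 0.04 in place of -0.04, no gene was called, and 11 genes did not overlap, beside 26.9% of all genes in the same comparison.

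**Figure D2:**
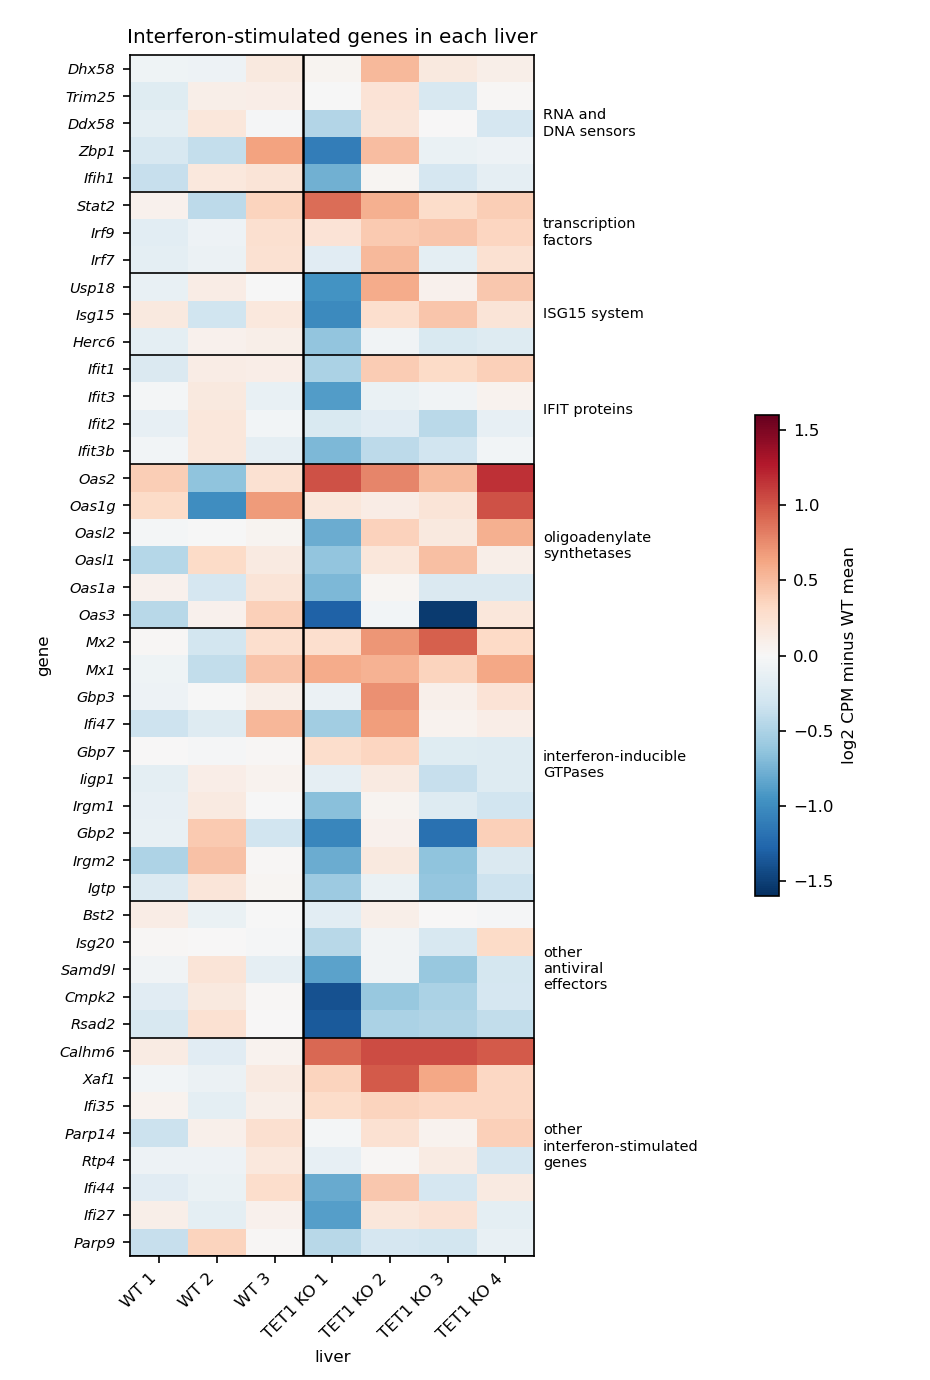
Log2 CPM of the 44 interferon-stimulated genes (rows, grouped by role) in each of the 7 livers (columns), as the difference from the WT mean of that gene. Blue cells are below and red cells above the WT mean, and TET1 KO replicate 1 holds the lowest value in 25 of the 44 rows, while its Stat2 cell is red.

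The sensors are helicases and nucleic acid receptors that detect viral RNA or DNA in the cytosol. None of the 5 was called, and 1 of them had a log2 fold change above 0. Trim25, the ubiquitin ligase that activates RIG-I and the sensor gene with the most reads, had 61.9, 75.5 and 76.5 CPM in the WT livers. In the TET1 KO livers it had 70.8, 82.7, 59.5 and 71.6 CPM, so the groups overlapped fully. Its log2 fold change was 0.00 (95% CI -0.32 to 0.31, edgeR adjusted p = 0.991). For the RNA helicases Ddx58, which encodes RIG-I, Ifih1, which encodes MDA5, and Dhx58, which encodes LGP2, the log2 fold changes were -0.12, -0.28 and 0.21. Zbp1, a sensor of Z-form nucleic acid, ranged from 2.88 CPM in TET1 KO replicate 1 to 9.93 CPM in WT replicate 3.

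The 3 transcription factors had log2 fold changes above 0, and none was called. Stat2, the subunit that brings the activation domain to the complex on the response element, had 69.5, 49.5 and 85.0 CPM in the WT livers. It had 124, 98.3, 81.4 and 87.0 CPM in the TET1 KO livers. WT replicate 3 overlapped the TET1 KO livers, and the highest value was that of TET1 KO replicate 1. The log2 fold change was 0.52 (95% CI 0.08 to 0.97, edgeR adjusted p = 0.137), and it was 0.33 without WT replicate 2 and 0.39 without TET1 KO replicate 1. Stat2 too lies on chromosome 10, 65.4 Mb from Tet1.

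Irf9, the DNA-binding subunit of the same complex, had 23.3, 24.7 and 31.5 CPM in the WT livers and 30.6, 35.2, 35.7 and 33.3 CPM in the TET1 KO livers. The groups overlapped by 1 mouse on each side. Its log2 fold change was 0.35 (95% CI 0.03 to 0.66, edgeR adjusted p = 0.157). Irf7, which drives the later wave of interferon alpha genes, had 23.7, 24.7 and 31.3 CPM in the WT livers and 23.3, 37.9, 23.6 and 31.4 CPM in the TET1 KO livers. Its values in TET1 KO replicates 1 and 3 were below those of every WT liver, and its log2 fold change was 0.13 (95% CI -0.29 to 0.55, edgeR adjusted p = 0.692).

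**Figure D3:**
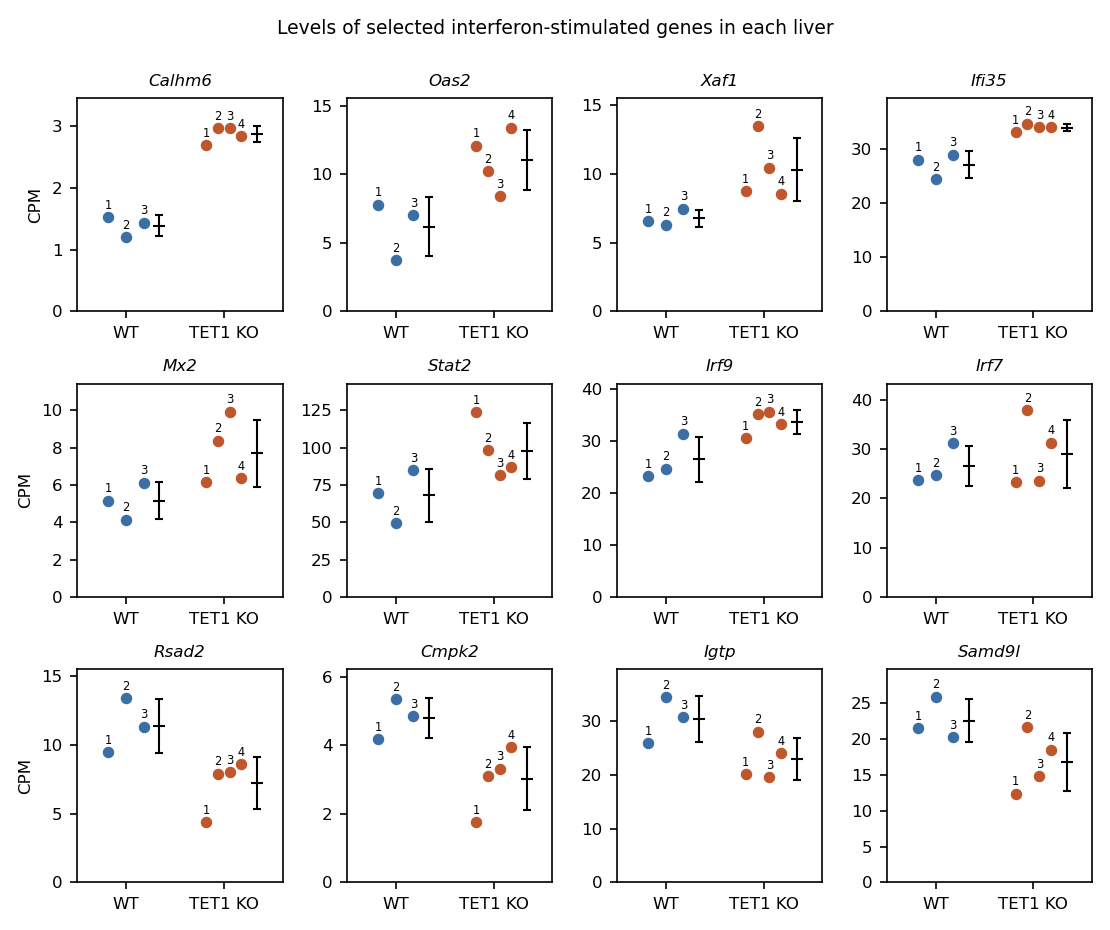
CPM of 12 interferon-stimulated genes in each WT and TET1 KO liver, with points numbered by replicate and the mean ± SD at the right of each group. The upper row and Mx2 show the 5 genes whose TET1 KO values all exceed the WT values, and the lower row opens with Rsad2 and Cmpk2, whose TET1 KO values are all below the WT values.

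The ISG15 system attaches the ubiquitin-like protein ISG15 to other proteins and removes it. None of its 3 genes was called. Isg15, the modifier itself and the gene of this group with the most reads, had 11.7, 8.37 and 11.8 CPM in the WT livers and 5.13, 12.7, 14.3 and 12.1 CPM in the TET1 KO livers. TET1 KO replicate 1 lay below all WT livers, and the other 3 lay above them. Over the group the log2 fold change was 0.06 (95% CI -0.58 to 0.71, edgeR adjusted p = 0.905). Usp18, the protease that removes ISG15 and dampens receptor signalling, was lowest in that liver as well, and ranged from 3.01 CPM there to 9.02 CPM in TET1 KO replicate 2. Herc6, the mouse ligase that attaches ISG15, had a log2 fold change of -0.27.

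IFIT proteins bind viral RNA that lacks the cap marks of the host. None of the 4 was called, and 3 had log2 fold changes below 0. Ifit3, the gene of this family with the most reads, had 11.4, 13.0 and 10.7 CPM in the WT livers and 6.26, 10.8, 11.3 and 12.2 CPM in the TET1 KO livers. Apart from TET1 KO replicate 1 the livers overlapped, and the log2 fold change was -0.21 (95% CI -0.68 to 0.27, edgeR adjusted p = 0.553). Ifit1, whose promoter is shown above, had 6.39 CPM in TET1 KO replicate 1 and 11.3 to 12.0 CPM in the other TET1 KO livers, which were above every WT liver (7.73 to 9.87 CPM). Ifit2 and Ifit3b had log2 fold changes of -0.26 and -0.36. The 4 genes lie side by side on chromosome 19, and Ifit3 and Ifit3b are near-identical copies whose reads may have been split between them.

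Oligoadenylate synthetases make the short RNA-like chains that activate RNase L. None of the 6 was called by edgeR, and 4 had log2 fold changes above 0. Oas2 had 7.78, 3.73 and 7.01 CPM in the WT livers and 12.1, 10.2, 8.39 and 13.4 CPM in the TET1 KO livers. All TET1 KO livers were above all WT livers. The log2 fold change was 0.84 (95% CI 0.27 to 1.41, edgeR adjusted p = 0.0897), the adjusted p was 0.0392 in DESeq2, and without WT replicate 2 the log2 fold change was 0.57. Its neighbour Oas3, which lies 3.21 kb away, had 0.984, 1.45 and 1.82 CPM in the WT livers and 0.501, 1.34, 0.409 and 1.58 CPM in the TET1 KO livers. These gave a log2 fold change of -0.55 with a CI from -1.56 to 0.46, the widest interval among the 44 genes. The log2 fold changes were -0.28 for Oas1a and 0.35 for Oas1g, which are close paralogs, and 0.05 and 0.17 for the related Oasl1 and Oasl2.

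The interferon-inducible GTPases assemble on the vacuoles of intracellular pathogens or, as the Mx proteins do, on viral ribonucleoproteins. None of the 10 was called, and 5 had log2 fold changes on either side of 0. Mx2 had 5.17, 4.15 and 6.13 CPM in the WT livers and 6.14, 8.38, 9.92 and 6.36 CPM in the TET1 KO livers. The groups were separated by 0.01 CPM only, and the log2 fold change was 0.58 (95% CI 0.09 to 1.08, edgeR adjusted p = 0.136). Its neighbour Mx1, which is defective in C57BL/6 mice, had a log2 fold change of 0.53 with overlapping groups. Iigp1, the GTPase gene with the most reads, had 227, 271 and 262 CPM in the WT livers and 228, 278, 195 and 218 CPM in the TET1 KO livers. Its groups overlapped, with a log2 fold change of -0.14 (95% CI -0.47 to 0.19, edgeR adjusted p = 0.570).

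Igtp, named after its values were seen because its unadjusted p was under 0.05, had 25.9, 34.4 and 30.7 CPM in the WT livers and 20.2, 28.0, 19.5 and 24.0 CPM in the TET1 KO livers. Only TET1 KO replicate 2 reached into the WT range. Its log2 fold change was -0.40 (95% CI -0.76 to -0.04, edgeR adjusted p = 0.152). The remaining immunity-related GTPases Irgm1, Irgm2 and Ifi47 had log2 fold changes of -0.26, -0.39 and 0.08, and the guanylate-binding proteins Gbp2, Gbp3 and Gbp7 had -0.33, 0.27 and 0.07. Paralogs of both families may have shared reads in the counting.

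Among the other antiviral effectors, all 5 log2 fold changes were below 0, with a median of -0.43, and none was called. Rsad2, which encodes viperin, a radical SAM enzyme that makes a chain-terminating nucleotide, had 9.45, 13.4 and 11.3 CPM in the WT livers. It had 4.38, 7.89, 8.03 and 8.58 CPM in the TET1 KO livers. All TET1 KO livers were below all WT livers, and replicate 1 was the lowest. The resulting log2 fold change was -0.65 (95% CI -1.16 to -0.15, edgeR adjusted p = 0.115), and it was -0.48 without TET1 KO replicate 1. Cmpk2, a mitochondrial nucleotide kinase encoded 12.7 kb away on chromosome 12, had 4.18, 5.35 and 4.86 CPM in the WT livers and 1.75, 3.10, 3.32 and 3.94 CPM in the TET1 KO livers. The order of the livers was the same as for Rsad2. Its log2 fold change was also -0.65 (95% CI -1.22 to -0.08, edgeR adjusted p = 0.145), and -0.47 without TET1 KO replicate 1.

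Samd9l, a restriction factor of poxviruses that was named after its values were seen, had 21.6, 25.9 and 20.3 CPM in the WT livers and 12.4, 21.6, 14.8 and 18.5 CPM in the TET1 KO livers. TET1 KO replicate 2 overlapped the WT livers, and the log2 fold change was -0.43 (edgeR adjusted p = 0.187). Bst2, which encodes tetherin and had the most reads of this group, had 130, 112 and 119 CPM in the WT livers and 107, 128, 121 and 119 CPM in the TET1 KO livers. The groups overlapped fully, with a log2 fold change of -0.02 (95% CI -0.29 to 0.25, edgeR adjusted p = 0.925). The exonuclease gene Isg20 had a log2 fold change of -0.08.

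Of the remaining genes besides Calhm6, Xaf1 and Ifi35 also had TET1 KO livers above all WT livers. Xaf1, a pro-apoptotic partner of XIAP, had 6.55, 6.30 and 7.45 CPM in the WT livers and 8.70, 13.5, 10.4 and 8.54 CPM in the TET1 KO livers. This gave a log2 fold change of 0.60 (95% CI 0.17 to 1.03, edgeR adjusted p = 0.0973). Ifi35, a leucine zipper protein that pairs with Nmi, had 28.1, 24.4 and 29.0 CPM in the WT livers and 33.1, 34.7, 34.1 and 34.0 CPM in the TET1 KO livers. The TET1 KO values lay very close to each other, and the log2 fold change was 0.32 (95% CI 0.06 to 0.59, edgeR adjusted p = 0.130). Ifi27, a mitochondrial protein and the gene of this group with the most reads, had 66.1, 55.6 and 65.2 CPM in the WT livers and 33.7, 70.2, 72.8 and 55.8 CPM in the TET1 KO livers. Without a separation of the groups, its log2 fold change was -0.10 (95% CI -0.60 to 0.40, edgeR adjusted p = 0.800). The log2 fold changes were -0.07 for Ifi44, -0.06 for Rtp4, -0.31 for Parp9 and 0.15 for Parp14.

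The genes that lie before and after these targets in the pathway were read from the same fit. Of 21 interferon genes, 20 had no count in any of the 7 livers, Ifnb1 and all listed interferon alpha genes among them. Ifng, the gene for interferon gamma, was counted 0, 2 and 1 times in the WT livers and 3, 0, 1 and 1 times in the TET1 KO livers, so no interferon gene could be compared at this depth. Of the 86 other pathway genes tested, 1 was called, and it was higher, where 2.02% of all genes were called in either direction, so the share called was no higher than over all genes. Nlrc5, the transactivator of MHC class I genes, had 22.4, 16.8 and 21.1 CPM in the WT livers and 38.1, 34.2, 38.0 and 27.0 CPM in the TET1 KO livers. The groups did not overlap, and the log2 fold change was 0.77 (95% CI 0.41 to 1.13, edgeR adjusted p = 0.0436). The call held without TET1 KO replicate 4 (adjusted p = 0.0211) and was lost without any other single mouse, with adjusted p from 0.0522 to 0.206.

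None of the 5 interferon receptor subunits tested was called. Ifnar1, a subunit for type I interferon, had 25.6 ± 0.776 CPM in WT and 23.5 ± 1.94 CPM in TET1 KO livers, and its log2 fold change was -0.12 (95% CI -0.40 to 0.15, edgeR adjusted p = 0.554). Ifnar2, its partner, had 47.2 ± 6.30 and 57.7 ± 5.87 CPM, with a log2 fold change of 0.29 (95% CI -0.02 to 0.60, edgeR adjusted p = 0.213). The groups overlapped for both genes. Ifngr1, a subunit for interferon gamma, had 16.9 ± 2.58 and 15.4 ± 3.23 CPM, also with overlap, and a log2 fold change of -0.14 (95% CI -0.55 to 0.28, edgeR adjusted p = 0.659). Il10rb, a subunit shared by the receptors for interferon lambda and interleukin 10, had a log2 fold change of -0.03 (edgeR adjusted p = 0.934). Ifngr2, the partner of Ifngr1, had 12.8, 17.2 and 16.6 CPM in the WT livers and 8.64, 11.4, 6.60 and 12.6 CPM in the TET1 KO livers. The groups did not overlap, and the log2 fold change was -0.66, the lowest of the 5 (95% CI -1.15 to -0.18, edgeR adjusted p = 0.102). None of the 10 receptor kinases and further transcription factors was called, and 6 of them had log2 fold changes above 0. Irf1, the early factor of the interferon gamma response, had 33.9, 25.1 and 26.6 CPM in the WT livers and 38.2, 53.1, 38.6 and 33.4 CPM in the TET1 KO livers. Its groups overlapped by WT replicate 1 and TET1 KO replicate 4, with a log2 fold change of 0.52 (95% CI 0.12 to 0.91, edgeR adjusted p = 0.112).

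No call was made among the 12 sensing genes upstream of interferon, with a median log2 fold change of -0.08, or among the 7 inhibitors of the pathway, with a median of 0.16. The 52 further interferon targets ranged from -1.10 for Gbp10 to 0.93 for Oas1c, with a median of 0.05, and 30 were above 0. Like the 44 genes, these targets lay on both sides of 0 at about the median of all genes.

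**Figure D4:**
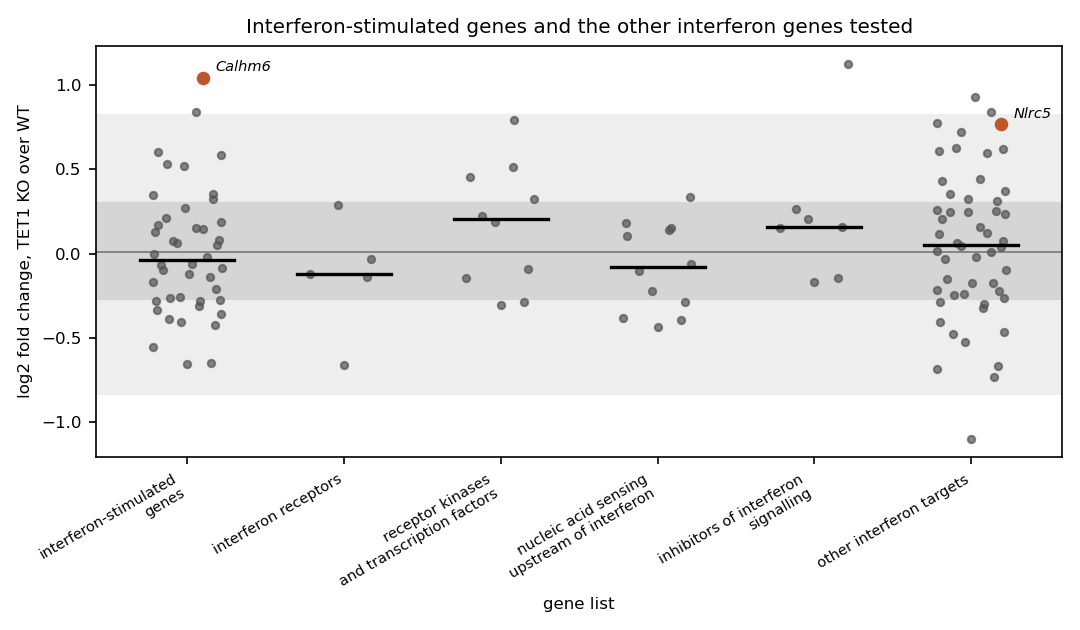
Log2 fold change, TET1 KO (n = 4) over WT (n = 3), of the 44 interferon-stimulated genes and of the other interferon genes tested, by list, with a bar at each median. Dark grey holds the middle 50% and light grey the middle 90% of all 14754 genes, from -0.83 to 0.82. The called genes Calhm6 and Nlrc5 are coloured, and the list medians lie between -0.12 and 0.20.

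Cell type markers were read beside these results. The sum of 8 Kupffer cell and macrophage markers was 229, 206 and 338 CPM in the WT livers and 156, 260, 179 and 338 CPM in the TET1 KO livers. TET1 KO replicate 1, the liver with the lowest interferon-stimulated genes, also had the lowest sum, and none of the 8 markers was at 0 in any library. The 2 orders did not match throughout, since TET1 KO replicate 4 had a higher sum than replicate 2, whose interferon-stimulated genes were higher. All 9 markers of T and NK cells, of which 5 passed the filter, summed to 3.81 to 6.51 CPM in WT and 5.71 to 11.8 CPM in TET1 KO livers. The highest sum was that of TET1 KO replicate 2, the liver with the highest interferon-stimulated genes. Markers of B cells summed to 2.03 to 4.04 CPM in WT and 3.02 to 8.45 CPM in TET1 KO livers, again with replicate 2 the highest. Neutrophil markers summed to 3.32 to 36.0 CPM in WT and 4.25 to 13.0 CPM in TET1 KO livers, with the highest sum in WT replicate 3. Those of plasmacytoid dendritic cells, for which 2 of 5 markers were tested, were read by gene. Siglech, the more specific of them, had 0.332 to 0.883 CPM in WT and 0.835 to 1.75 CPM in TET1 KO livers. Tcf4, which many cell types express, had 30.9 to 44.5 CPM and 42.8 to 64.9 CPM, and both were highest in TET1 KO replicate 1. The 6 endothelial markers summed to 145 to 147 CPM in WT and 121 to 140 CPM in TET1 KO livers. The 5 hepatocyte markers were abundant in all 7 livers at sums from 59417 to 80437 CPM. The T and NK markers Klrb1c and Gzma, the neutrophil markers Ly6g and Retnlg and the plasmacytoid marker Pacsin1 were at 0 in at least 1 library. edgeR called none of the markers tested. DESeq2 called the hepatocyte genes Apoa1 (log2 fold change 1.08, adjusted p = 1.7e-06) and Serpina1a (0.44, adjusted p = 0.0419) and the endothelial gene Lyve1 (-1.11, adjusted p = 0.0141). The part of the markers in the results on the interferon-stimulated genes was not tested.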

How the data were processed

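The submitters' processing notes name Trimmomatic 0.36, GSNAP and featureCounts 1.5.3 on GRCm38. The authors deposited 1 table of raw counts per mouse, not normalized. The library kit keeps strand, but whether strand was used in counting and how reads with several matches were treated are not given in the sources used here, so paralogs and overlapping genes remain uncertain. Tables were joined by Ensembl identifier, and 5 repeated entries with equal counts were dropped.

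The 44 genes, their roles and all other lists were chosen with earlier results of these data known. Counts were filtered with filterByExpr, TMM-scaled and tested in edgeR 4.0.16 (R 4.3.3) by the quasi-likelihood test over all genes, without covariates. DESeq2 1.42.0 was an alternative. The edgeR script was tested on simulated data. Log2 CPM used a prior count of 2. The replicate numbers do not pair the mice, and the labels carry no batch. Genotypes and replicate numbers were taken from the labels, and p-values set the genotype difference against the variation between these livers. Alternatives were other scalings and filters, robust dispersions, a replicate block, an adjusted p under 0.1 and leaving out each mouse.

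Full statistics were given for each gene called, each gene without overlap at an unadjusted p under 0.05, Stat2, Irf7, Irf9 and the gene with the highest mean CPM in each role. Among the pathway genes they were given for each gene called and for Irf1, Ifnar1, Ifnar2, Ifngr1 and Ifngr2. Tet1, Ifnb1 and Ifng, also in the rule, were given by their counts, and 1 further gene of this rule is not reported here. Promoters and positions came from RefSeq tables of GRCm38.p6, matched by symbol. Python 3.11 with matplotlib 3.10.9 drew the figures.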

Additional observations from a re-analysis of the deposited data

Results flagged for a closer look

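Within the 4 TET1 KO livers, 1 liver lay far from the other 3 in 4 of the 58 values examined, where chance alone gives about 1 in 20, or 2.9. For Ifit1 the gap of TET1 KO replicate 1 (6.39 CPM) to the next liver (11.3 CPM) was 0.86 of the range of the group. For Rsad2 the gap of the same liver (4.38 CPM) to the next (7.89 CPM) was 0.84 of the range. For Oas1g the gap of TET1 KO replicate 4 (2.32 CPM) to the next (1.28 CPM) was 0.93 of the range. For the summed T and NK cell markers the gap of TET1 KO replicate 2 (11.8 CPM) to the next (6.57 CPM) was 0.86 of the range. Each gap exceeded the 95% critical value of Dixon's test for 4 samples, and groups of 3 were not examined.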

How the results depend on the processing

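The number of the 44 genes called higher was 0 with library size only, 2 in DESeq2 and 3 at an adjusted p under 0.1, and it was 1 with RLE size factors, no filter, at least 10 counts in every library and robust dispersions. Leaving out each mouse gave 0 to 1 genes called higher, 8 to 14 without overlap, and 0 to 2 pathway genes called. The genes without overlap were 18.2% to 31.8% of the 44 genes and 26.1% to 40.6% of all genes, and the share of the 44 genes was the higher one only without WT replicate 3 (31.8% beside 30.8%) and, with all mice, without a filter on low counts (15.9% beside 15.3%). The call of Calhm6 was the one lost with library size only. The number of pathway genes called was 2 with library size only, 7 in DESeq2 and 8 at an adjusted p under 0.1. With the replicate number as a block, 0 of the 44 genes were called higher and 1 was called lower (Rsad2, adjusted p = 0.0475). The 5 pathway genes called in that edgeR fit were Gbp10, Gbp4, Ifngr2 (adjusted p = 0.0466), Lgals3bp and Nlrc5. Over all genes there were 1326 calls (8.99%) in place of 298. Over all genes there were 419 calls (2.84%) with library size only, 592 without a filter, 1326 in DESeq2, 1666 at an adjusted p under 0.1, and 38 without WT replicate 2 to 891 without TET1 KO replicate 4. The numbers are only names here, since the deviations of same-numbered mice correlated at 0.21, -0.12 and -0.10. The median of the 44 genes ran from -0.14 with library size only, where that of all genes was -0.08, to 0.04 without WT replicate 3.

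None of the genes whose direction turned was called. With library size only it was -0.030 for Isg15, -0.047 for Oasl1, -0.022 for Gbp7 and -0.0090 for Ifi47. With the replicate block it was -0.075 for Isg15, -0.072 for Usp18, -0.071 for Oasl2 and 0.0056 for Rtp4. Leaving out each mouse, the range was -0.44 to 0.21 for Zbp1, -0.11 to 0.061 for Trim25, -0.038 to 0.24 for Irf7, -0.097 to 0.30 for Isg15, -0.052 to 0.38 for Usp18, -0.059 to 0.72 for Oas1g, -0.16 to 0.23 for Oasl1, -0.0072 to 0.38 for Oasl2, -0.040 to 0.16 for Gbp7, -0.16 to 0.38 for Ifi47, -0.26 to 0.021 for Isg20, -0.078 to 0.027 for Bst2, -0.24 to 0.090 for Ifi27, -0.28 to 0.11 for Ifi44, -0.14 to 0.0082 for Rtp4 and -0.011 to 0.26 for Parp14. Of genes that were not called and kept their direction, some also moved widely: the range was -0.69 to -0.091 for Gbp2, 0.063 to 0.37 for Gbp3, -0.61 to -0.12 for Irgm2 and -0.49 to -0.12 for Parp9. It was -0.31 to -0.036 for Ifit3, -0.25 to -0.018 for Ddx58, -0.45 to -0.14 for Ifih1 and 0.079 to 0.27 for Dhx58. The causes were not tested. The CI of a gene with few reads, such as Oas3 at 8 counts in its lowest library, sets what this depth can show.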

Other observations

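Socs3, the feedback inhibitor of Jak kinases, was looked up among the inhibitors after its values were seen. It had 5.76, 4.77 and 12.1 CPM in the WT livers and 37.1, 11.8, 7.72 and 9.05 CPM in the TET1 KO livers. The highest value was that of TET1 KO replicate 1, the liver with the lowest level in 25 of the 44 interferon-stimulated genes, and the log2 fold change was 1.13 (95% CI -0.05 to 2.30, edgeR adjusted p = 0.205). Of the 86 pathway genes, DESeq2 called 7, where edgeR called Nlrc5 alone. DESeq2 called 9.02% of all genes, so the share called was no higher than over all genes. The higher ones were Nlrc5 (adjusted p = 0.0029), Psmb10 (log2 fold change 0.59, adjusted p = 0.0204), Apol9b (0.82, adjusted p = 0.0164) and Ifi203 (0.58, adjusted p = 0.0361). The lower ones were Gbp10 (-1.12, adjusted p = 0.0348), Lgals3bp (-0.76, adjusted p = 0.0275) and Tor3a (-0.70, adjusted p = 0.0209).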
